A study of Mus musculus with 2 samples.

Results

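Hmox1, Fth1 and Ftl1 are 3 genes of haem breakdown and iron storage, taken by name from a single-cell RNA sequencing study of mouse retinal immune cells. All 3 were listed in both deposited count tables, which together held 17683 genes. Hmox1 encodes haem oxygenase 1, the inducible enzyme that opens the haem ring and releases iron, carbon monoxide and biliverdin. Fth1 and Ftl1 encode the heavy and the light chain of ferritin, the hollow protein shell in which cells store iron. The heavy chain oxidises ferrous iron, and the light chain helps the iron to be laid down as mineral inside the shell. Macrophages and microglia, the resident macrophages of the retina, are known to switch on Hmox1 under oxidative and heat stress and after taking up haem. Ferritin is also known to be set at the level of translation: when iron is scarce, iron regulatory proteins bind a hairpin in the 5′ untranslated region of its mRNAs and block the ribosome.

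The cells had been flow-sorted for the leukocyte marker CD45 from retinas of B6 mice. Some cells in both libraries nonetheless had transcripts that mark retinal neurons or glia. All mice had microbead-induced glaucoma, in which beads placed in the eye raise its pressure. In the Igfbpl1 group the glaucomatous mice had received Igfbpl1, a protein of the insulin-like growth factor binding family, and in the PBS group they had received PBS. Each group was 1 library pooled from the retinas of 10 mice aged 8 to 10 months, and all mice were perfused with saline and their retinas dissociated with collagenase/dispase, papain and DNase before sorting. With 1 library per group nothing was tested: each interval below is an exact 95% interval that covers counting error only, and each ratio compares these libraries rather than the treatments.

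The ferritin mRNAs share the regulatory hairpin, and its sequence is shown because it is the element by which both chains are known to be controlled together. The search was for a C, any 5 bases and then CAGTG on the coding strand of the annotated 5′ untranslated regions, and the capitals mark the 6-base loop.
Fth1, mm10 chr19:9982732-9982761, plus strand: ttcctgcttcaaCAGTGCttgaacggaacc
Ftl1, mm10 chr7:45459778-45459807, minus strand: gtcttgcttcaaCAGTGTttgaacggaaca
The sequences are identical at 26 of 30 bases. Both lie inside exonic 5′ untranslated sequence of transcripts Fth1-201 and Ftl1-201. The letters searched for are short and occur in 12.3% of the 20883 genes that have such a region, so a match alone is only a description. The 129-base region of Hmox1-201 held no match. The genes themselves lie on different chromosomes of mm10: Hmox1 at chr8:75093621-75100589 on the plus strand, Fth1 at chr19:9980598-9985098 on the plus strand and Ftl1 at chr7:45457944-45459884 on the minus strand. UMI counts (unique molecular identifiers, each standing for 1 captured mRNA) report mRNA abundance, not the translation that this hairpin controls.

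The Igfbpl1 library held 3330 cells and 9463631 UMIs, and the PBS library 1055 cells and 3795008 UMIs, with medians of 2356 UMIs per cell in the Igfbpl1 library and 3433 in the PBS library. No barcode was shared between them. Cells were put in classes by how many markers of each cell type they expressed, none of the markers being Hmox1, Fth1 or Ftl1. The microglia-like class held 1668 Igfbpl1 cells and 786 PBS cells, and all 12 of its markers were detected in at least 10% of its cells in both libraries. In an unsupervised clustering, clusters 1 and 2 held most of the Igfbpl1 microglia (656 and 505 cells) and cluster 3 most of the PBS microglia (620 cells). Myeloid cells rich in MHC class II transcripts were split by Apoe into an Apoe-high class (257 Igfbpl1 and 52 PBS cells) and an Apoe-low class (443 Igfbpl1 and 3 PBS cells). Erythroid RNA was close to nil: in microglia-like cells the 6 erythroid markers summed to 18 UMIs in the Igfbpl1 library and 0 in the PBS library.

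In microglia-like cells all 3 genes were higher in the Igfbpl1 library, Hmox1 by the largest factor. Hmox1 stood at 925 UMIs per 1000000 UMIs of the class (CPM; interval 896 to 955) in the Igfbpl1 library, against 282 CPM (263 to 302) in the PBS library. The ratio was 3.28 (3.04 to 3.54). Fth1 stood at 7975 CPM (7888 to 8062) in Igfbpl1 microglia and 4638 CPM (4560 to 4717) in PBS microglia, a ratio of 1.72 (1.69 to 1.75). Ftl1 stood at 4013 CPM (3952 to 4075) in Igfbpl1 microglia and 2584 CPM (2526 to 2643) in PBS microglia, a ratio of 1.55 (1.51 to 1.60).

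Against the other genes of these cells, all 3 of the 3 genes were at least 1.5-fold higher on the log2(CPM + 10) scale, a size reached by 3.87% of the 3358 genes measured (a mean of at least 50 CPM and at least 20 UMIs). The all-gene median log2 difference was -0.11, while that of Hmox1 was 1.68, that of Fth1 0.78 and that of Ftl1 0.63. Of the 3358 genes, 17 had a larger log2 difference than Hmox1, 80 a larger one than Fth1 and 106 a larger one than Ftl1. Ftl1 fell short of 1.5-fold in cells of at least 2000 UMIs (1.46) and in cells under 10 Apoe UMIs per 1000 (1.49), and both ferritin genes did so in cells with Y-linked transcripts, given further on.

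A larger share of microglia-like cells held Hmox1 transcript in the Igfbpl1 library. After every cell was thinned to 1000 UMIs, an Hmox1 UMI was found in 43.0% (40.6 to 45.4) of Igfbpl1 microglia and 18.3% (15.7 to 21.2) of PBS microglia. Without thinning the shares were 57.1% in the Igfbpl1 library and 39.8% in the PBS library, with median depths of 2074 and 3548 UMIs. In lymphocytes, which should lack Hmox1, thinned shares of cells with a UMI were 3.63% (1.67 to 6.78) of 248 Igfbpl1 T-like cells and 3.50% (1.15 to 7.97) of 143 Igfbpl1 NK-like cells. Of 28 PBS T-like cells 0 held one, which allows a share of up to 10.7% of cells with a UMI. The median depth of T-like cells was 2174 UMIs in the Igfbpl1 library and 3795 in the PBS library. B-like cells gave 0 of 45 in the Igfbpl1 library and 0 of 77 in the PBS library, at median depths of 1269 UMIs in the Igfbpl1 library and 2235 in the PBS library. The microglial share lay above the lymphocyte values of its own library.

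Fth1 and Ftl1 were present in nearly every microglia-like cell, so there the libraries differed in amount per cell more than in the number of positive cells. In thinned microglia Fth1 was detected in 98.0% of Igfbpl1 cells and 95.4% of PBS cells, with medians of 6 and 4 UMIs per 1000. Ftl1 was detected in 91.5% of Igfbpl1 cells and 83.1% of PBS cells, with medians of 3 and 2 UMIs per 1000. Hmox1 was sparse in both libraries, with a median of 0 UMIs per 1000. The 167 Igfbpl1 cells and 79 PBS cells with most Hmox1 held 45.9% of its UMIs in the Igfbpl1 library and 54.4% in the PBS library. For Fth1 as many cells held 32.9% in the Igfbpl1 library and 27.3% in the PBS library. Such shares depend on the mean level of a gene. Variance over mean was 2.41 for Hmox1 and 5.46 for Fth1 in the Igfbpl1 library. In the PBS library it was 1.60 for Hmox1 and 1.99 for Fth1, so these measures do not rank the genes alike.

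**Figure D1:**
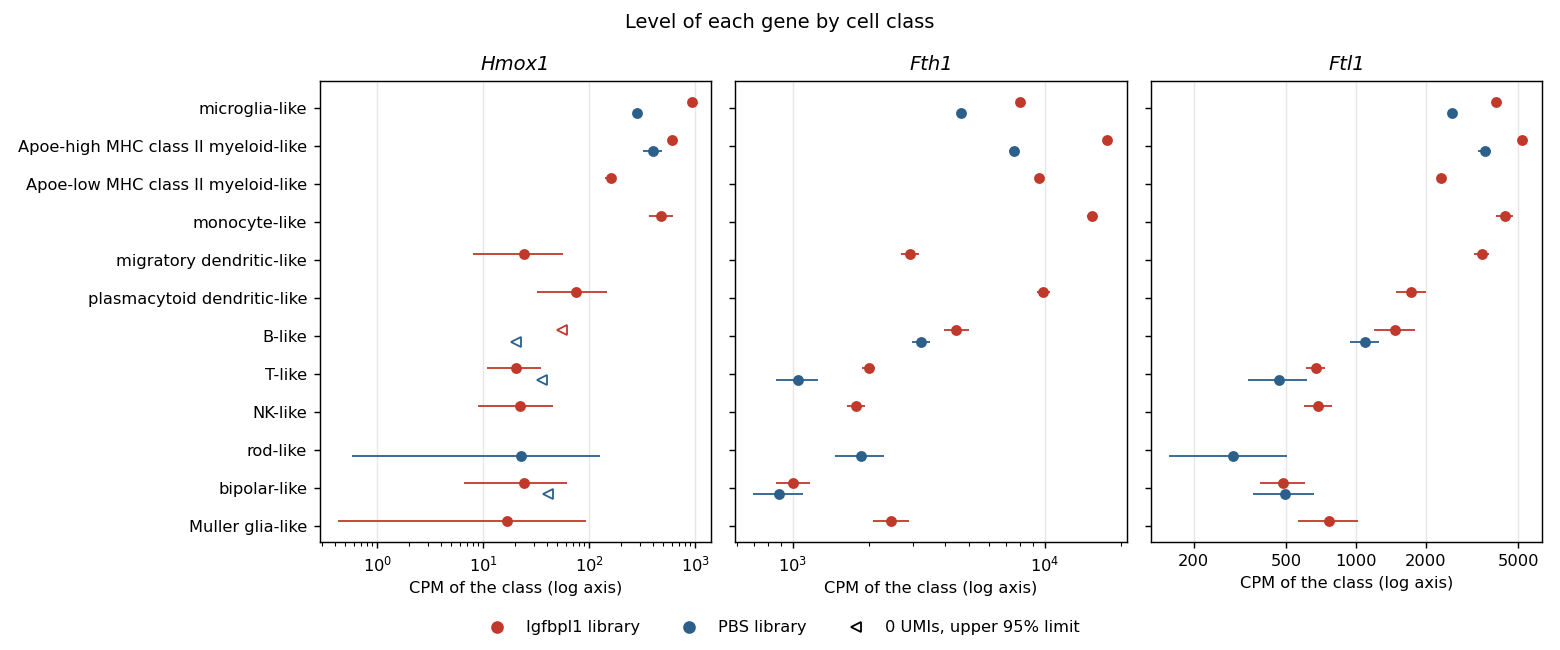
Level of Hmox1, Fth1 and Ftl1 (CPM of all UMIs of a class, log axes) in each cell class with at least 20 cells in that library; points are 1 library each and bars are exact 95% Poisson intervals, with open triangles at the upper limit where 0 UMIs were found. Hmox1 was highest in microglia-like cells of the Igfbpl1 library at 925 CPM, whereas Fth1 was highest in Apoe-high MHC class II cells of that library at 17684 CPM.

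Across the cell classes Hmox1 was highest in microglia-like and other myeloid cells. In the Igfbpl1 library its order was microglia-like cells at 925 CPM, Apoe-high MHC class II cells at 599 CPM (553 to 649), monocyte-like cells at 478 CPM (367 to 611) and Apoe-low MHC class II cells at 159 CPM (142 to 178). The intervals of the Apoe-high and monocyte-like cells overlapped, and the other steps did not. Below them the plasmacytoid dendritic-like cells stood at 75.0 CPM (32.4 to 148). Migratory dendritic-like, bipolar-like, NK-like, T-like and Müller glia-like cells all had between 16.7 and 24.4 CPM, from at most 13 UMIs each, and their intervals overlapped. Such levels are not read here as expression in those cells, and the part of free RNA in them was not tested.

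In the PBS library the top of the Hmox1 order was the other way round by summed UMIs, but not at equal depth. Apoe-high MHC class II cells had 399 CPM (322 to 490) and microglia-like cells 282 CPM, and these intervals did not overlap. After thinning to 1000 UMIs, the mean was 0.231 Hmox1 UMIs in the 52 Apoe-high cells and 0.266 in microglia-like cells. The thinned share of cells with a UMI was 19.2% (9.63 to 32.5) in Apoe-high cells and 18.3% (15.7 to 21.2) in microglia-like cells. No order of these 2 classes is therefore read from the PBS library. The rod-like cells had 22.7 CPM from 32 cells, and B-like, T-like and bipolar-like cells had 0 Hmox1 UMIs. Microglia-like cells held 77.4% of all Hmox1 UMIs of the Igfbpl1 library while making up 50.1% of its cells, and 88.5% in the PBS library while making up 74.5%.

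Fth1 had another order, led by MHC class II and monocyte-like cells instead of microglia. In the Igfbpl1 library Apoe-high MHC class II cells had 17684 CPM (17427 to 17945) and monocyte-like cells 15340 CPM (14678 to 16023). Plasmacytoid dendritic-like cells followed at 9865 CPM (9278 to 10480) and Apoe-low MHC class II cells at 9492 CPM (9352 to 9633), with overlapping intervals. Microglia-like cells came after these 4 classes, at 7975 CPM. B-like cells had 4452 CPM, migratory dendritic-like cells 2919 CPM, T-like cells 1998 CPM, NK-like cells 1779 CPM and bipolar-like cells 1004 CPM. The MHC class II cells, 21.0% of the Igfbpl1 library, held 44.2% of its Fth1 UMIs, more than the 40.4% in microglia-like cells. In the PBS library, where they were 5.21% of cells, they held 11.2% of the Fth1 UMIs and microglia-like cells 80.9%. Within the PBS library the Fth1 order was Apoe-high MHC class II cells at 7559 CPM, microglia-like cells at 4638 CPM, B-like cells at 3221 CPM, rod-like cells at 1857 CPM, T-like cells at 1045 CPM and bipolar-like cells at 880 CPM, the last 2 with overlapping intervals.

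Ftl1 was also highest in Apoe-high MHC class II cells of the Igfbpl1 library, at 5185 CPM (5046 to 5327). Monocyte-like cells at 4368 CPM and microglia-like cells at 4013 CPM came next, with overlapping intervals. Migratory dendritic-like cells, which had little Fth1, came next for Ftl1 at 3489 CPM (3238 to 3754). Apoe-low MHC class II cells had 2324 CPM and plasmacytoid dendritic-like cells 1733 CPM, with intervals that did not overlap, unlike those of their Fth1 levels. Lymphocytes and neurons were low, from 1469 CPM in B-like cells down to 487 CPM in bipolar-like cells. In the PBS library Ftl1 stood at 3580.0 CPM in Apoe-high MHC class II cells and 2584 CPM in microglia-like cells, against 1090.0 CPM in B-like cells, 495 CPM in bipolar-like cells, 465 CPM in T-like cells and 294 CPM in rod-like cells, whose intervals overlapped among the last 3.

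The balance of the ferritin chains therefore differed between cell classes within a library. Both values come from 3′ UMIs, which count 1 per captured mRNA whatever its length, so no correction for length was made; how evenly the transcripts are captured was not tested. Plasmacytoid dendritic-like cells had 5.69 Fth1 UMIs per Ftl1 UMI (4.86 to 6.69), and Apoe-low MHC class II cells 4.09 (3.95 to 4.22). Migratory dendritic-like cells of the Igfbpl1 library were the only class of at least 20 cells with less heavy than light chain transcript, 0.837 (0.749 to 0.934). Rod-like cells of the PBS library had 6.31 (3.49 to 12.4), a value that rests on 13 Ftl1 UMIs.

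Between the libraries the balance differed in the whole microglia-like and Apoe-high MHC class II classes, but not in all sets of cells within them. Microglia-like cells had 1.99 (1.95 to 2.03) Fth1 UMIs per Ftl1 UMI in the Igfbpl1 library and 1.80 (1.75 to 1.85) in the PBS library. In Apoe-high MHC class II cells the values were 3.41 (3.31 to 3.52) in the Igfbpl1 library and 2.11 (1.94 to 2.30) in the PBS library. No such difference was seen in microglia-like cells without an MHC class II marker UMI, at 1.73 (1.67 to 1.80) in the Igfbpl1 library and 1.78 (1.70 to 1.86) in the PBS library. Nor was it seen in those without a UMI of the chemokines Ccl2, Ccl7 and Ccl12, at 1.82 (1.75 to 1.90) in the Igfbpl1 library and 1.84 (1.76 to 1.92) in the PBS library. Among Apoe-high MHC class II cells with Y-linked and no Xist UMIs, the values were 1.94 (1.55 to 2.43) in 8 Igfbpl1 cells and 1.90 (1.69 to 2.15) in 21 PBS cells. Those with Xist and no Y-linked UMIs kept the difference. Their values were 3.34 (3.22 to 3.47) in 162 Igfbpl1 cells and 2.12 (1.83 to 2.45) in 19 PBS cells. For bipolar-like cells they were 2.06 (1.57 to 2.72) in the Igfbpl1 library and 1.78 (1.22 to 2.62) in the PBS library, with overlapping intervals. Ftl1-ps1, a pseudogene close in sequence to Ftl1, had 184 UMIs in the whole Igfbpl1 library and 78 in the PBS library, beside 29918 UMIs of Ftl1 in the Igfbpl1 library and 9020 in the PBS library. Reads that fit both may have been lost or misassigned in counting, which was not tested.

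**Figure D2:**
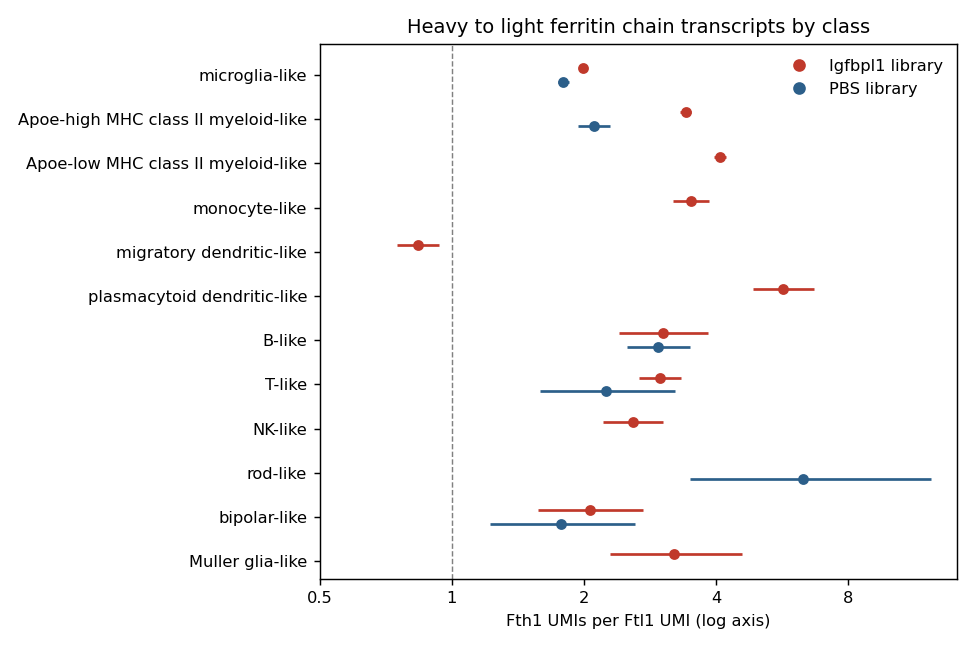
Fth1 UMIs per Ftl1 UMI (log axis) by class and library, for classes with at least 20 cells; bars are exact 95% conditional binomial intervals and the dashed line marks equal numbers. In the Igfbpl1 library migratory dendritic-like cells lie left of the line at 0.837 and plasmacytoid dendritic-like cells at 5.69. Apoe-high MHC class II cells lie at 3.41 in the Igfbpl1 library against 2.11 in the PBS library.

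Outside microglia, 3 classes could be compared between the libraries. In Apoe-high MHC class II cells Fth1 differed most, at 17684 CPM in the Igfbpl1 library and 7559 CPM in the PBS library, a ratio of 2.34 (2.23 to 2.46). Ftl1 differed 1.45-fold (1.35 to 1.56) and Hmox1, with 609 UMIs in Igfbpl1 cells and 92 in PBS cells, 1.5-fold (1.20 to 1.89). These 2 cell sets differed widely in general: of 2856 genes measured there, 17.7% were at least 1.5-fold higher and 29.1% at least 1.5-fold lower in the Igfbpl1 library. On that scale 151 genes had a larger log2 difference than Fth1, 513 than Hmox1 and 551 than Ftl1, so Hmox1 and Ftl1 were within the common range. The Hmox1 ratio was 1.17 (0.954 to 1.44) when cells were grouped by clustering and 2.97 (1.66 to 5.85) after thinning. Median heat shock UMIs per 1000 were 15 in these Igfbpl1 cells and 11.5 in the PBS cells, and their part was not tested. The split by Apoe was set after the values had been seen, and 68 Igfbpl1 cells and 3 PBS cells lay within 5 UMIs per 1000 of its limit of 10. Taking both Apoe classes together, the mix of which differed between the libraries, the ratio was 1.70 (1.62 to 1.78) for Fth1, 0.915 (0.856 to 0.980) for Ftl1 and 0.849 (0.686 to 1.06) for Hmox1, where 19.3% of genes were higher and 35.1% lower.

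In T-like cells Fth1 stood at 1998 CPM in 248 Igfbpl1 cells and 1045 CPM in 28 PBS cells, a ratio of 1.91 (1.57 to 2.35). Ftl1 stood at 670.3 CPM in Igfbpl1 T-like cells and 465 CPM in PBS T-like cells, a ratio of 1.44 (1.07 to 1.99). In this class 27.1% of genes were at least 1.5-fold higher in the Igfbpl1 library, so these ratios do not stand out. Bipolar-like neurons gave ratios of 1.14 (0.869 to 1.51) for Fth1 and 0.984 (0.676 to 1.45) for Ftl1, with 14.0% of genes at least 1.5-fold higher, and their ferritin difference was not detectable at this depth. In clusters named bipolar in place of the marker classes the ratios were 2.36 for Fth1 and 2.33 for Ftl1, so these values depend on how the cells are grouped. Hmox1 was too sparse to compare in either class, with 13 UMIs in Igfbpl1 T-like cells, 4 UMIs in Igfbpl1 bipolar-like cells and 0 UMIs in either class of the PBS library. B-like cells were not compared as a ratio under the rule for top genes, which in the PBS library held 4 MHC class II markers and 3 B cell markers. All 10 B cell markers were detected in at least 10% of B-like cells in both libraries. Their Fth1 levels were 4452 CPM (3963 to 4986) in the Igfbpl1 library and 3221 CPM (2966 to 3492) in the PBS library. Monocyte-like cells, at 38 Igfbpl1 cells and 10 PBS cells, were too few to compare.

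Among microglia-like cells Hmox1 went with heat shock transcripts, and ferritin did so far less. Ranges were cut from the summed UMIs, after thinning to 1000 per cell, of 8 chaperone genes such as Hspa1a, Dnajb1 and Hsp90aa1, and a range is not a cell type. From the lowest range (0 to 9 UMIs) to the highest (40 or more), Hmox1 in the Igfbpl1 library stood at 479, 751, 1177 and 2148 CPM. In the PBS library it stood at 190, 320.3, 407 and 1357 CPM, the highest range holding only 11 cells. The top range exceeded the bottom one 4.49-fold (3.97 to 5.08) in the Igfbpl1 library and 7.16-fold (5.20 to 9.68) in the PBS library. With ranges cut from unthinned cells the PBS factor was 11.5 (7.94 to 16.1), from 6 cells in the top range. For Fth1 the same contrast was 1.17 (1.12 to 1.23) in the Igfbpl1 library and 1.24 (1.08 to 1.42) in the PBS library, and for Ftl1 1.24 (1.16 to 1.32) in the Igfbpl1 library and 1.38 (1.16 to 1.65) in the PBS library.

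The Igfbpl1 library held more of the cells rich in heat shock transcripts, with a median of 18 such UMIs per 1000 in its microglia-like cells against 9 in those of the PBS library. Within single ranges the Hmox1 ratio between the libraries was 2.53 (2.18 to 2.94) at 0 to 9 UMIs, 2.35 (2.05 to 2.69) at 10 to 19, 2.89 (2.50 to 3.36) at 20 to 39 and 1.58 (1.19 to 2.15) at 40 or more. The direction in the top range turned with unthinned cells: Hmox1 stood there at 1917 CPM in 103 Igfbpl1 cells and 2180 CPM in 6 PBS cells, a ratio of 0.879 (0.630 to 1.26). When the Igfbpl1 cells were weighted to the heat shock distribution of the PBS cells, the Hmox1 ratio was 2.42 in place of 3.28. The Fth1 ratio under the same weighting was 1.72 and the Ftl1 ratio 1.57, each within its counting interval of the unweighted value. Of the microglia-like cells, 208 in the Igfbpl1 library and 74 in the PBS library had 18 to 21 heat shock UMIs, close to the limit of 20.

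**Figure D3:**
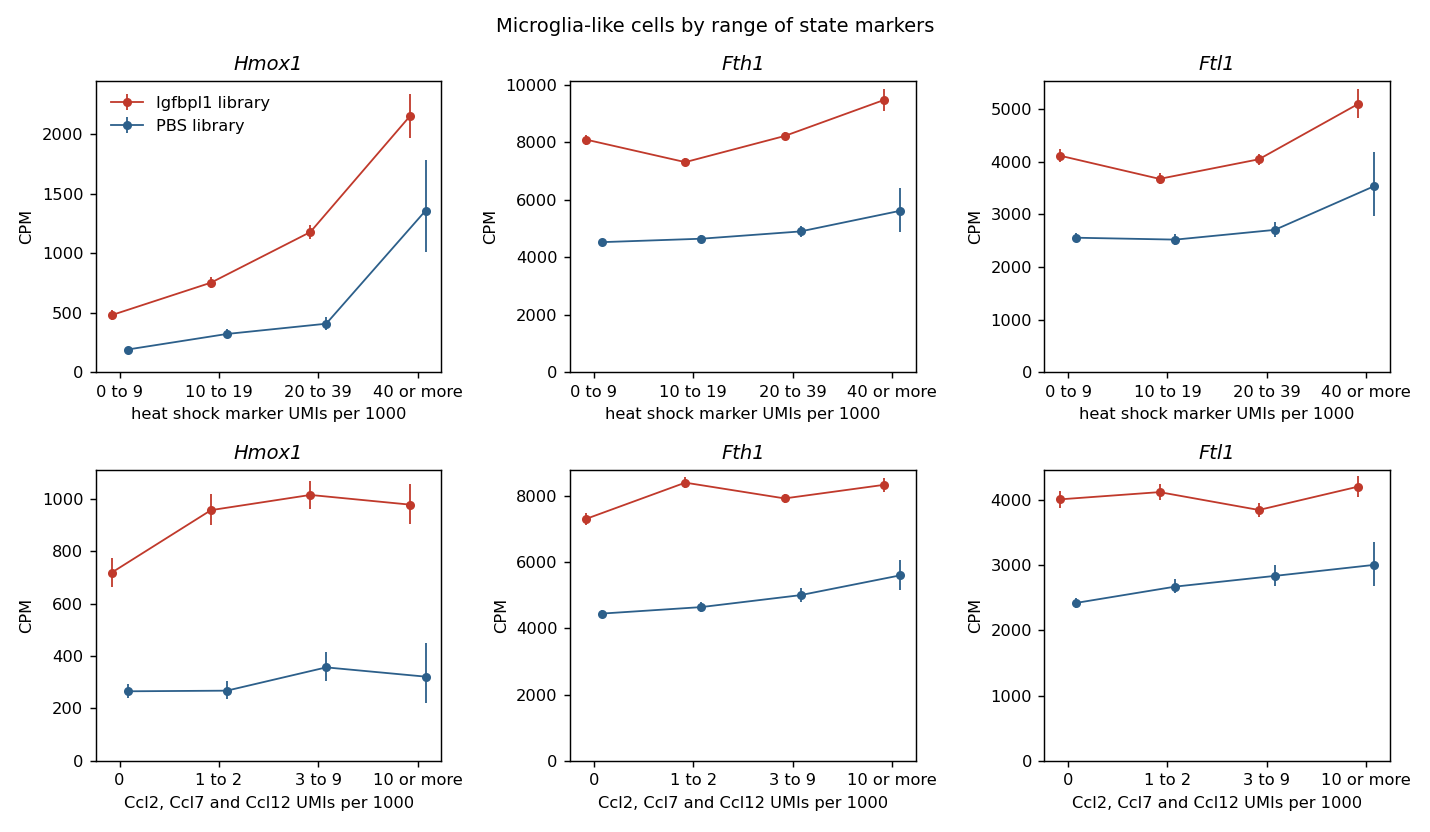
Level of each gene (CPM, linear axes from 0) in microglia-like cells grouped by summed heat shock UMIs (top row) or chemokine UMIs (bottom row) per 1000, with exact 95% Poisson intervals. Hmox1 climbs with heat shock transcripts in both libraries, to 2148 CPM in the Igfbpl1 library and 1357 CPM in the PBS library, and the Igfbpl1 line lies above the PBS line in all 6 panels; with unthinned cells the top heat shock range of Hmox1 has a ratio of 0.879.

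Immediate early genes such as Fos, Jun and Egr1 split the 3 genes in another way. Hmox1 at 30 or more early gene UMIs was 2.16-fold (1.92 to 2.44) its level at 0 to 9 in the Igfbpl1 library and 2.03-fold (1.53 to 2.67) in the PBS library. From the lowest range to the highest, PBS levels were 266, 283, 274 and 540 CPM. Only the top PBS range, of 29 cells, stood apart. For Fth1 the same contrast was 1.06 (1.02 to 1.10) in the Igfbpl1 library and 0.999 (0.911 to 1.09) in the PBS library. For Ftl1 it was 1.34 (1.26 to 1.42) in the Igfbpl1 library and 1.76 (1.59 to 1.94) in the PBS library. The Ftl1 ratio between the libraries was 1.61 (1.54 to 1.68) in cells with 0 to 9 early gene UMIs and 1.08 (1.01 to 1.16) in cells with 20 to 29, while the Fth1 ratio in those ranges was 1.75 and 1.74. Median early gene UMIs per 1000 were 15 in Igfbpl1 microglia and 9 in PBS microglia, and the part of these transcripts in the ratios was not tested. Median heat shock UMIs per 1000 also rose from the lowest early gene range to the highest. They went from 11 to 26 in the Igfbpl1 library and from 7 to 15 in the PBS library. Their part in the Hmox1 values was not tested.

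Hmox1 differed less across the ranges of chemokine transcripts. Igfbpl1 microglia with 10 or more UMIs of Ccl2, Ccl7 and Ccl12, which attract monocytes, had 978 CPM of Hmox1, against 718 CPM in those with 0, a factor of 1.36 (1.22 to 1.52). In PBS microglia the levels were 321 CPM with 10 or more and 265 CPM with 0, a factor of 1.21 (0.826 to 1.72), with 26 cells in the upper range. With unthinned cells the PBS factor was 0.968 (0.586 to 1.51), so no direction is read from it. For Fth1 the factor was 1.14 (1.10 to 1.18) in the Igfbpl1 library and 1.26 (1.16 to 1.37) in the PBS library. In microglia with 0 of these chemokine UMIs after thinning, the ratio between the libraries was still 2.71 (2.39 to 3.08) for Hmox1. It was 1.64 (1.59 to 1.70) for Fth1 and 1.66 (1.58 to 1.74) for Ftl1. Such cells may hold chemokine UMIs that thinning dropped. Their median depth was 2004 UMIs in the Igfbpl1 library and 3442.5 in the PBS library. Crossing 3 chemokine ranges with 2 heat shock ranges gave 6 sets of cells, in which the Hmox1 ratio lay between 2.11 and 3.04, the Fth1 ratio between 1.49 and 1.86 and the Ftl1 ratio between 1.24 and 1.71. At 0, 1 to 2 and 3 or more chemokine UMIs, Igfbpl1 cells of 0 to 19 heat shock UMIs had 476, 614 and 732 CPM of Hmox1. Those of 20 or more heat shock UMIs had 1236, 1431 and 1291 CPM. Median heat shock UMIs per 1000 in the Igfbpl1 library were 15 at 0 chemokine UMIs and 19 at 10 or more. The part of heat shock transcripts in the chemokine factor was not tested.

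Cells rich in interferon transcripts had less Hmox1 than cells with 0 such UMIs after thinning in the Igfbpl1 library. Cells with 3 or more UMIs of interferon-stimulated genes such as Ifit3 and Isg15 had 682 CPM (593 to 781) of Hmox1 in the Igfbpl1 library, against 937 CPM (903 to 972) in cells with 0, a factor of 0.728 (0.629 to 0.838). In the PBS library the levels were 231 CPM with 3 or more and 295 CPM with 0, a factor of 0.781 (0.519 to 1.13) whose interval includes 1. The middle range, 1 to 2 UMIs, had 977 CPM in the Igfbpl1 library and 207 CPM in the PBS library, so Hmox1 did not fall steadily. Fth1 was 1.25-fold (1.16 to 1.35) as high in the interferon range of the PBS library, and 1.04-fold (1.00 to 1.09) in that of the Igfbpl1 library.

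Apoe, which encodes a lipid carrier made by glia and macrophages, went most with Fth1. Microglia with 10 or more Apoe UMIs per 1000 had 10549 CPM of Fth1 in the Igfbpl1 library, against 6873 CPM in cells with 0, a factor of 1.54 (1.49 to 1.58). In the PBS library the levels were 6760 CPM with 10 or more and 4231 CPM with 0, a factor of 1.60 (1.53 to 1.67). For Ftl1 the factor was 1.29 (1.24 to 1.34) in the Igfbpl1 library and 1.34 (1.26 to 1.43) in the PBS library. For Hmox1 it was 1.24 (1.14 to 1.34) in the Igfbpl1 library and 1.30 (1.06 to 1.58) in the PBS library. The Fth1 ratio between the libraries was 1.63 (1.58 to 1.67) in cells with 0 Apoe UMIs and 1.56 (1.5 to 1.63) in cells with 10 or more.

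From cell to cell the counts of the 3 genes were only weakly correlated, and sparse counts lower such correlations. In Igfbpl1 microglia with 3 or more Hmox1 UMIs per 1000, Fth1 stood at 9792 CPM against 7570.1 CPM in cells with 0, a factor of 1.29 (1.25 to 1.33). In PBS microglia the levels were 4838 CPM with 3 or more and 4621 CPM with 0, a factor of 1.05 (0.917 to 1.19) from 14 cells in the upper range. In cells with 0 Hmox1 UMIs after thinning, the ratio between the libraries was 1.64 (1.60 to 1.68) for Fth1. For Ftl1 it was 1.48 (1.43 to 1.53). These cells do not all lack Hmox1. Thinning lowered the number of microglia with an Hmox1 UMI from 952 to 717 in the Igfbpl1 library. In the PBS library it fell from 313 to 144. The ratio in cells that lack Hmox1 was not tested. Over thinned microglia-like cells Pearson's r between Fth1 and Ftl1 was 0.331 in the 1668 Igfbpl1 cells and 0.260 in the 786 PBS cells, given as a description of cells that share a library and a fixed depth. Correlations with Hmox1 were at most 0.108, too weak in such sparse counts to be a finding.

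Both libraries mixed cells with Xist, the transcript of the inactive X chromosome, and cells with Y-linked transcripts, in unequal numbers. Microglia-like cells with Xist and no Y-linked UMI numbered 602 in the Igfbpl1 library and 195 in the PBS library, and those with Y-linked and no Xist UMI 440 in the Igfbpl1 library and 367 in the PBS library. Hmox1 stood at 993 CPM in Igfbpl1 Xist-only cells and 292 CPM in PBS Xist-only cells, a ratio of 3.40 (2.93 to 3.96). In Y-only cells it stood at 854 CPM in the Igfbpl1 library and 276 CPM in the PBS library, a ratio of 3.09 (2.75 to 3.48), and these intervals overlap. Fth1 stood at 9346 CPM in Igfbpl1 Xist-only cells and 3923 CPM in PBS Xist-only cells, a ratio of 2.38 (2.29 to 2.48). In Y-only cells it stood at 6764 CPM in the Igfbpl1 library and 4890 CPM in the PBS library, a ratio of 1.38 (1.34 to 1.43). Ftl1 gave 2.25 (2.12 to 2.39) in Xist-only and 1.25 (1.20 to 1.31) in Y-only cells.

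Ferritin thus ran in opposite order between these sets in the 2 libraries. Fth1 in Xist-only cells was 1.38-fold (1.34 to 1.42) its level in Y-only cells in the Igfbpl1 library, and 0.802-fold (0.767 to 0.839) in the PBS library. Ftl1 was 1.17-fold (1.13 to 1.22) in the Igfbpl1 library and 0.652-fold (0.612 to 0.694) in the PBS library. Apoe moved the same way: it stood at 16023 CPM in the Xist-only set of the Igfbpl1 library and 5418 CPM in its Y-only set, against 3830.1 CPM in the Xist-only set of the PBS library and 7403 CPM in its Y-only set. Its part in the ferritin values was not tested. Mice are not marked in the data, so sex and single animals cannot be told apart here. In Apoe-high MHC class II cells the Fth1 ratio was 2.47 (2.27 to 2.69) in Xist-only cells and 0.931 (0.802 to 1.08) in Y-only cells, but the Igfbpl1 library held only 8 of the second kind, against 21 in the PBS library.

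**Figure D4:**
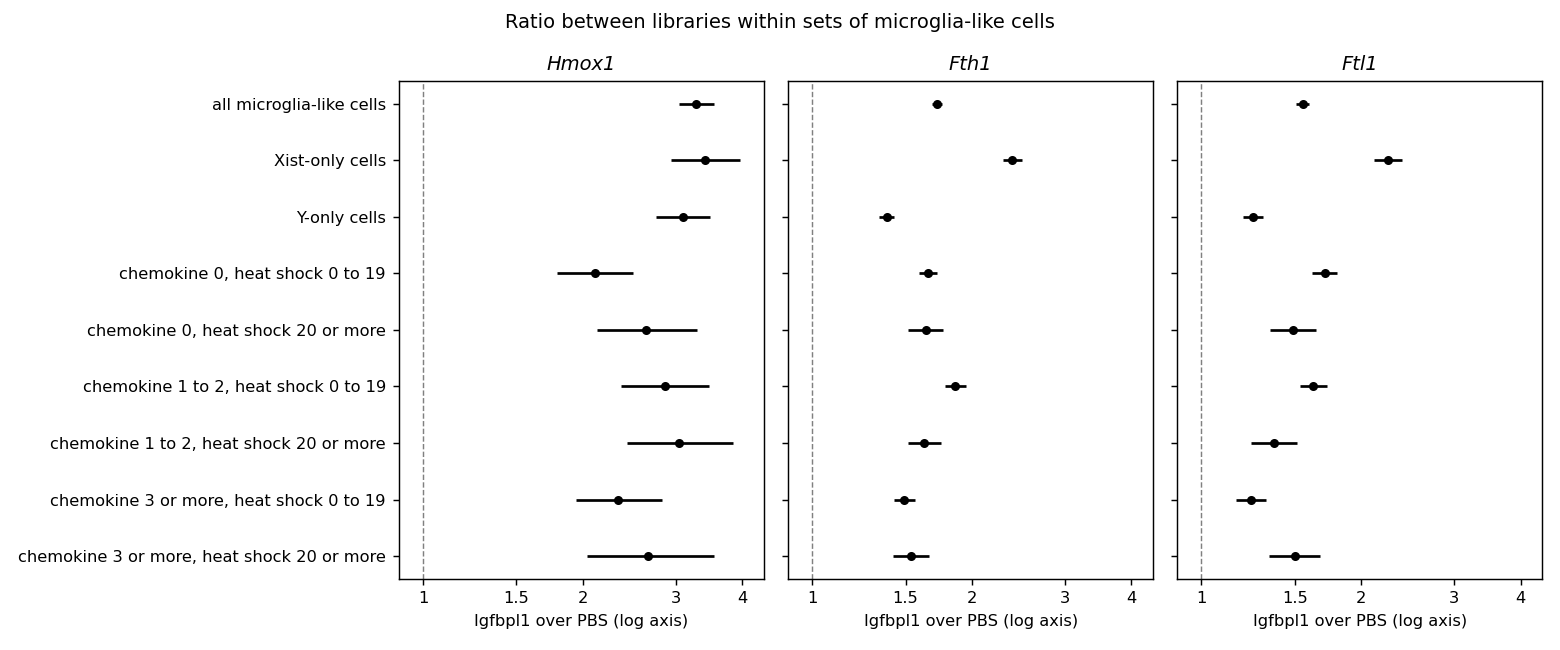
Ratio of CPM, Igfbpl1 over PBS (log axis), for all microglia-like cells, for Xist-only and Y-only cells, and for cells crossed by chemokine and heat shock UMIs per 1000; bars are exact 95% intervals for counting error and the dashed line marks a ratio of 1. All 9 Hmox1 ratios lie between 2.11 and 3.40. Those of Fth1 and Ftl1 are highest in Xist-only cells (2.38 and 2.25), against 1.38 and 1.25 in Y-only cells. The lowest Ftl1 ratio is 1.24, in cells of 3 or more chemokine and 0 to 19 heat shock UMIs.

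The rest of the haem and iron pathway was read against the same 1.5-fold limit in microglia-like cells. Of 76 other genes of the lists, 61 were listed in both tables and 20 were measured. None of the 20 was at least 1.5-fold higher in the Igfbpl1 library and 1 was at least 1.5-fold lower, beside 3.87% higher and 5.78% lower of all genes measured, so these counts are near the background. Their median log2 difference was 0.07, where that of all genes was -0.11.

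Haem breakdown beyond Hmox1 showed small differences. Hmox2, the constitutive haem oxygenase, stood at 106 CPM in Igfbpl1 microglia and 109 CPM in PBS microglia, a ratio of 0.965 (0.833 to 1.12). Blvrb, a biliverdin reductase that acts downstream of haem oxygenase, stood at 111 CPM in the Igfbpl1 library and 88.0 CPM in the PBS library, a ratio of 1.26. Hmox1 thus made up a larger part of the haem oxygenase transcripts in Igfbpl1 microglia. Lrp1, a receptor that takes up the haem-haemopexin complex among many other ligands, was the single gene past the limit, at 149 CPM in the Igfbpl1 library and 232 CPM in the PBS library, a ratio of 0.639. It did not pass the limit with 50 CPM added, with either other scaling, in unsupervised clusters, after thinning, with heat shock weighting or in Y-only cells. Alas1, the first enzyme of haem synthesis, stood at 52.0 CPM in the Igfbpl1 library and 56.9 CPM in the PBS library.

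No measured gene of iron handling around ferritin passed the limit. The iron chaperones Pcbp1 and Pcbp2, which deliver iron to ferritin, had ratios of 1.02 and 0.993. Slc40a1, the iron exporter ferroportin, stood at 67.2 CPM in Igfbpl1 microglia and 72.8 CPM in PBS microglia, a ratio of 0.924. Slc11a1, which moves iron out of the phagosome, stood at 134 CPM in the Igfbpl1 library and 170.1 CPM in the PBS library, a ratio of 0.788. Iscu, a scaffold for iron-sulphur clusters, had a ratio of 0.918, and Fbxl5, an iron sensor that targets iron regulatory proteins for breakdown, one of 1.10.

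Known regulators of Hmox1 did not pass the limit where they were measured. Nfe2l2, which encodes the activator NRF2, stood at 268 CPM in Igfbpl1 microglia and 246 CPM in PBS microglia, a ratio of 1.09. Bach1, the haem-sensitive repressor of Hmox1, stood at 149 CPM in the Igfbpl1 library and 132 CPM in the PBS library, a ratio of 1.13. Mafg, a small MAF protein that pairs with both NRF2 and BACH1, stood at 45.6 CPM in the Igfbpl1 library and 64.5 CPM in the PBS library, a ratio of 0.708 (0.574 to 0.871). Of 7 other measured targets of NRF2, none passed the limit: Sod2 had a ratio of 1.34, Txn1 1.24, Sqstm1 1.20, Prdx1 1.15, Gpx4 1.11, Taldo1 1.10 and Gclc 0.999. Transcript levels say nothing of the activity of either factor.

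Below the minimum level, 36 genes of the lists had at least 20 UMIs, and by the plain ratio of CPM 3 of them were at least 2-fold higher and 1 at least 2-fold lower. Of all 7726 such genes 6.36% were at least 2-fold higher and 5.68% at least 2-fold lower, so the lists do not stand out. Maff, another small MAF protein, stood at 23.3 CPM in Igfbpl1 microglia and 9.66 CPM in PBS microglia, a ratio of 2.41. Srxn1, a sulphiredoxin and NRF2 target, had 21 UMIs in Igfbpl1 microglia and 2 in PBS microglia. Slc7a11, the cystine importer, stood at 10.1 CPM in the Igfbpl1 library and 4.49 CPM in the PBS library, a ratio of 2.24. On the log2(CPM + 10) scale Srxn1, at 0.50, and Slc7a11, at 0.47, did not reach 1.5-fold. Pgrmc1, a haem-binding membrane protein, stood at 24.1 CPM in the Igfbpl1 library and 51.4 CPM in the PBS library, a ratio of 0.468. Hp, which encodes haptoglobin, had 9 UMIs in Igfbpl1 microglia and 1 in PBS microglia, and Cd163, the haemoglobin scavenger receptor, was listed for the PBS library only, with 6 UMIs. Steap3, an iron reductase, was listed for the Igfbpl1 library only, with 10 UMIs, as were Lcn2 with 3, Tfr2 with 2 and Flvcr2 with 2. Hba-a1 and Hbb-bs were listed for the Igfbpl1 library only, with 8 and 10 UMIs in its microglia, so globin mRNA was close to nil in both.

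**Figure D5:**
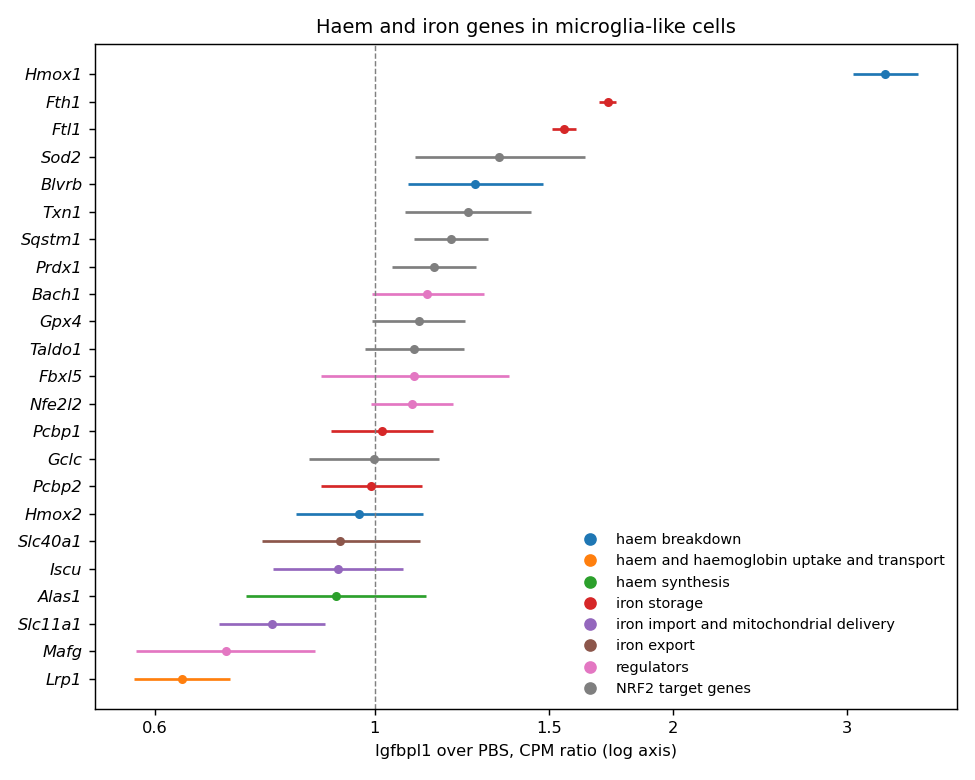
Ratio of CPM, Igfbpl1 over PBS (log axis), of the 23 measured haem and iron genes in microglia-like cells, coloured by role, with exact 95% intervals for counting error; the dashed line marks a ratio of 1. Hmox1 at 3.28, Fth1 at 1.72 and Ftl1 at 1.55 lie at the top, and the other 20 genes lie between 0.639 (Lrp1) and 1.34 (Sod2).

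Genes with the most similar pattern were sought over 17 pools of a class and library with at least 20 cells, as Pearson's r of log2(CPM + 10) with 7177 genes, given as a description since pools of 1 library share it. Closest to Hmox1 were Pilra (r = 0.943), Slc15a3 (0.935), Fcgr4 (0.927), Il13ra1 (0.926) and Tlr2 (0.917). In microglia-like cells each of these differed less between the libraries than Hmox1 did. In the Igfbpl1 library they stood at 89.7, 243, 105, 61.7 and 188 CPM, in that order. In the PBS library they stood at 80.1, 327, 63.8, 69.4 and 139 CPM. Closest to Fth1 were Prkcd (0.908), Cybb (0.904), H2-DMb1 (0.903), Tep1 (0.901) and Alox5ap (0.894), of which H2-DMb1 was itself used to set the classes. Closest to Ftl1 were Apobec1 (0.955), Spi1 (0.944), Skap2 (0.940), Prkcd (0.929) and Aif1 (0.925). The ferritin chains were near each other, r being 0.873 and Ftl1 ranking 15th for Fth1, while Hmox1 and Fth1 had an r of 0.790 with Fth1 at rank 179 for Hmox1.

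Other transcripts also differed between the libraries in microglia-like cells. The 5 MHC class II markers summed to 1192 CPM in the Igfbpl1 library and 335 CPM in the PBS library, with all 5 detected in both. The 10 monocyte markers summed to 233 CPM (9 detected) in the Igfbpl1 library and 46.2 CPM (9 detected) in the PBS library, and the 7 border macrophage markers to 44.2 CPM (4 detected) in the Igfbpl1 library and 95.9 CPM (6 detected) in the PBS library. In cells without any MHC class II marker UMI, a choice made after the values had been seen, the ratio was 2.99 (2.63 to 3.40) for Hmox1, 1.68 (1.62 to 1.74) for Fth1 and 1.72 (1.64 to 1.81) for Ftl1. In cells with a UMI of P2ry12, Tmem119, Sall1 or Gpr34, which mark microglia more strictly and were also chosen afterwards, the ratios were 3.28 for Hmox1, 1.69 for Fth1 and 1.53 for Ftl1. The median share of ribosomal protein UMIs was 15.8% over the Igfbpl1 library and 10.1% over the PBS library, and its part was not tested beyond the scaling without those UMIs.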

How the data were processed

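Retinal cells sorted for CD45, in 1 Igfbpl1 and 1 PBS library, were profiled with a 10x 3′ kit, per the labels' protocols. The deposited tables hold raw UMI counts for each gene in each cell, which the authors had not normalised. Cell Ranger 3.1 and mm10 are named in the submitters' processing notes. Any earlier filter on cells is not stated in the sources used here. Per cell, the lowest total was 1001 UMIs in the Igfbpl1 library and 1003 in the PBS library, and no cell was removed.

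Each cell was given the class with most distinct markers detected, at least 3 and 1 more than the next class. Cells with at least 3 MHC class II markers, 10 such UMIs and no fewer than of microglial markers formed the MHC class II class, split at 10 Apoe UMIs per 1000. Lymphoid, neuronal or glial cells that also had at least 3 microglial markers or met the MHC class II criterion (53 Igfbpl1 and 7 PBS cells), and cells without a class (171 and 9), were left out of all classes. These class rules, the ranges of state markers and the Apoe split were set after the data had been seen. Scrublet doublets (62 Igfbpl1 and 6 PBS cells) were kept.

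UMIs were summed per class and library and divided by the class total (CPM). Intervals are exact at 95%: Poisson for CPM, conditional binomial for ratios, Clopper-Pearson for shares, and a count of 0 allows up to 3. Ratios have nothing added, and log2 values have 10 CPM added. Classes needed at least 20 cells in both libraries and top genes that fit their name. Genes that could be named were the 3 genes, pathway genes at a mean of at least 50 CPM and 20 UMIs in microglia-like cells, those below it past 2-fold with 20 UMIs or listed for 1 library, and 5 fixed further genes. Genes, markers and lists were chosen with earlier results of these data known. Positions and sequences come from GENCODE M21 on mm10. Ratios and intervals were tested on simulated data. Python 3.11.15, numpy 2.4.6, pandas 2.3.3, scipy 1.17.1, scanpy 1.11.5, anndata 0.12.19, igraph 0.11.9 and matplotlib 3.10.9 were used.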

Additional observations from a re-analysis of the deposited data

How the results depend on the processing

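Of 192 recomputed values, 36 were counts of genes, of which 23 stayed within 1.5 times and 13 did not; over all 192, 135 stayed within that limit or within their counting interval, 56 moved by more, and 1 whose interval excluded 1 changed direction. That was Hmox1 in microglia of 40 or more heat shock UMIs, 1.58 by thinned and 0.879 by unthinned cells. In microglia-like cells the Hmox1 ratio of 3.28 became 2.94 with 50 CPM added, 3.58 with scaling by the median ratio of genes (a shift of -0.13 log2 in the scale), 3.62 with cells thinned to 1000 UMIs, 2.42 with heat shock weighting and 2.99 in cells without an MHC class II UMI. The Fth1 ratio of 1.72 became 1.88 with median scaling, 1.77 without mitochondrial and ribosomal protein UMIs, 1.77 thinned, 1.61 in cells under 10 Apoe UMIs per 1000, 1.68 in cells without an MHC class II UMI, 1.86 after subtraction of the level in bipolar-like cells, 2.38 in Xist-only and 1.38 in Y-only cells. The Ftl1 ratio of 1.55 became 1.70, 1.60, 1.67, 1.49, 1.72, 1.69, 2.25 and 1.25 under the same settings, 1.61 in Leiden clusters (resolution 0.8) and 1.46 in cells of at least 2000 UMIs. In Apoe-high MHC class II cells Hmox1 was 1.17 (0.954 to 1.44) in Leiden clusters, where the interval includes 1, and 2.97 thinned. There Fth1 was 2.72 with median scaling (a shift of -0.22 log2), 2.62 without mitochondrial and ribosomal protein UMIs and 2.18 thinned, and Ftl1 1.69 and 1.62 under the first 2 of these. Leiden clusters named bipolar gave 2.36 for Fth1 and 2.33 for Ftl1, against 1.14 and 0.984 by markers; the cause was not tested. With unthinned cells, factors in the Igfbpl1 library became 1.04 (Fth1 over chemokine ranges), 1.27 (Fth1, heat shock), 1.45 (Fth1, Hmox1), 1.38 (Ftl1, Hmox1), 1.61 (Fth1, Apoe) and 1.36 (Ftl1, Apoe), and in the PBS library 11.5 (Hmox1, heat shock, 6 cells in the top range) and 0.693 (Ftl1, Hmox1, 2 cells); library ratios became 1.90 for Fth1 and 1.70 for Ftl1 at 0 to 9 early gene UMIs and 1.80 for Fth1 at 0 chemokine UMIs. The count of other haem and iron genes, 0 higher and 1 lower, became 1 higher (Maff) and 3 lower (Lrp1, Pgrmc1, Ireb2) with a minimum of 10 CPM or none, 2 higher (Txn1, Sqstm1) and 2 lower (Lrp1, Slc40a1) in Xist-only cells, 1 higher (Blvrb) and 0 lower in Y-only cells, Ireb2 in place of Lrp1 as the 1 lower gene without mitochondrial and ribosomal protein UMIs, and 0 lower with 50 CPM added, median scaling, Leiden clusters, thinning or heat shock weighting; Ireb2 was named after its values were seen. The subsets by Apoe, MHC class II and strict microglial markers and the subtraction were chosen after seeing the data. No paired analysis was possible because each group has 1 library, and no replicate could be left out. Depth limits Hmox1 in lymphocytes and neurons, where at most 13 UMIs were found per class.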
